A study of Mus musculus with 6 samples.

Results

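Adrenomedullin and the components of its receptor are encoded by 5 genes, Adm, Calcrl, Ramp1, Ramp2 and Ramp3, out of 18193 genes that the array's annotation names by a single symbol. They were found as the 10 probe sets whose annotation gives exactly 1 of these symbols. The genes were chosen by the log2 MAS5 signals of this same comparison, in which Adm was among the most raised genes, with the receptor genes added as its pathway, so for these 5 genes the comparison of genotypes is a description and no test of it is given. RNA was measured in isolated pancreatic islets, the endocrine clusters of the pancreas, on 3 arrays from control mice and 3 from mice lacking Vhlh in beta cells. The knockout combined Cre recombinase under the RIP2 insulin promoter with Vhlh(fl/fl) alleles, so cells of the islet in which that promoter is silent keep the gene. The labels name this model for all 6 samples and mark 3 of them only as control, so whether the controls carried Cre or the floxed alleles is not given in the sources used here. In both genotypes array 01 came from animals of 26 weeks, 02 of 20 weeks and 03 of 18 weeks, recorded as male, female and male. Each array held 1 batch of islets, and how many mice made a batch is not given in the sources used here. Strain was not given either.

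Adrenomedullin is a secreted peptide that widens vessels, steadies the endothelial barrier and is needed for lymphatic vessels to form. In pancreatic islets it has been described as a peptide that lowers insulin secretion. Its receptor is a complex: Calcrl, a G protein-coupled receptor that raises cAMP, needs a receptor activity-modifying protein (RAMP) to reach the cell surface and to choose its ligand. With Ramp1 it binds calcitonin gene-related peptide (CGRP), with Ramp2 or Ramp3 it binds adrenomedullin. Adm is a classical target of hypoxia-inducible factor (HIF), the transcription factor that the von Hippel-Lindau protein, the product of Vhlh, marks for degradation. HIF binds a short DNA core, ACGTG or GCGTG.

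The values are MAS5 signals, the authors' intensity per probe set, scaled so that every array has a trimmed mean of 500.003. The median signal of an array ranged from 101.9 to 122.7, and a signal below its array's median is called dim here. Differences are in log2 units, knockout minus control, with the standard error (SE) of limma's model. Signals of different probe sets are not on a common scale, so no gene's level is ranked against another's. Some arrays stood apart. Xist, the RNA of the inactive X chromosome, was at 162.6 and 187.1 on the arrays numbered 01 and between 11319 and 16381 on the others, and the Y-linked Eif2s3y was at 1646 and 1801 on arrays 01 and at most 21.5 elsewhere. Both arrays numbered 03 thus went against their recorded sex, male, and member differences are also given without them. The summed signal of 7 acinar (exocrine) markers was between 271190 and 381590 on the arrays numbered 01 and 02 but 60911 on control 03 and 5576 on knockout 03. Islet hormone genes were abundant on all arrays, with Gcg at 31892 or more and Sst at 18157 or more. Vhl, the targeted gene, had signals of 456.6, 638.7 and 838.8 in controls and 343.6, 358.3 and 467.4 in knockouts, which overlapped, and where its probes lie relative to the deleted part was not analysed here. Of the 11609 genes bright enough to test, 2 passed an adjusted p of 0.05, which is 0.0172%, and 6 with the replicate number as a block, which is 0.0517%. None of the 5 genes was among them in either fit, and nothing is read from that, the comparison having been known. An unadjusted limma p under 0.05 was found for 300 genes (2.58%), and with the block for 584 (5.03%).

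Adm, the ligand, and Ramp3, a receptor partner, are shown by the 250 bases before their start in RefSeq (GRCm38.p6, sequence given on the gene's own strand), because both hold the HIF core and yet their transcripts differed unlike between genotypes. Adm lies on the plus strand at chr7:110627407-110627656 and Ramp3 on the plus strand at chr11:6658283-6658532. Capitals mark matches to GCGTG on either strand, which read CACGC where the match is on the opposite strand.
Adm: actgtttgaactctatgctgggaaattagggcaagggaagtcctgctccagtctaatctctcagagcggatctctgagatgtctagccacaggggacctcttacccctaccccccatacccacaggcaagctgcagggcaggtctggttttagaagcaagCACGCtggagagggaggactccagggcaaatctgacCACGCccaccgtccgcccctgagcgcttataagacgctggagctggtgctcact
Ramp3: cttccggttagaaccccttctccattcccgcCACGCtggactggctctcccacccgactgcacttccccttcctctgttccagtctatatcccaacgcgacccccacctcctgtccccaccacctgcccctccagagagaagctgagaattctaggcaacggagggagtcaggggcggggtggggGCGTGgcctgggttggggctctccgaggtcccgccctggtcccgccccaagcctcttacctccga
Adm held 2 matches, both on the opposite strand, beginning 90 and 54 bases before the start. Ramp3 held 2 as well, beginning 219 bases before the start on the opposite strand and 65 bases before it on the gene's own. Calcrl and Ramp1 held 0 matches to either core in this window. No match to ACGTG, nor to the longer CACGTG that contains it, was found in any of these 4 promoters. Among all 32851 promoters of the same length 28.2% held GCGTG, 16.6% held ACGTG, 38.6% held at least 1 of them and 8.6% held 2 or more copies of GCGTG, so such matches are common. A match is a run of letters and does not show binding.

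Adm was higher in every knockout sample on both of its probe sets. On the probe set that represents the gene, 1416077_at, signals were 35.7, 51.9 and 41.0 in controls and 282.4, 380.4 and 306.1 in knockouts. Each control signal was dim, in the lowest 32.7% of its array, whereas the knockout signals lay between the 67.8th and 71.8th percentiles, so the groups stood well apart. The knockout level was 7.56-fold the control level, a log2 difference of 2.92 (SE 0.46, 95% interval 1.91 to 3.93, n = 3 per genotype). Spread within a genotype was small, with an SD of 0.27 in controls and 0.22 in knockouts on the log2 scale. On this probe set the difference was nearly the same in each pair of same-numbered arrays, 2.98 in pair 01, 2.87 in pair 02 and 2.90 in pair 03. Without both arrays numbered 03 it was 2.93. The gene entered the table of tested genes through its knockout signals alone, since no control signal was above its array's median. Dim signals limit the size of the fold: with 50 units added to every signal the difference was 2.00, and with every dim signal raised to its array's median it was 1.55.

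The second Adm probe set, 1447839_x_at, showed a larger and less even rise. Its signals were 99.7, 159.8 and 100.6 in controls and 2746, 894.5 and 6275 in knockouts. The groups did not overlap, but the knockouts spanned a wide range, with knockout 02 lowest here and highest on the first probe set. The log2 difference was 4.41 (SE 0.58, 95% interval 3.12 to 5.70), a 21.3-fold higher level, and it was 4.78, 2.49 and 5.96 in the pairs 01, 02 and 03. The knockout SD was 1.41 on the log2 scale against 0.22 on the first probe set. Both probe sets therefore place all 3 knockouts above all 3 controls, and they differ on how much higher and on the order of the knockouts. A probe set whose name ends in _x_at can bind related transcripts, and the annotation gives this probe set no accession, so which transcript it reads was not analysed here.

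**Figure D1:**
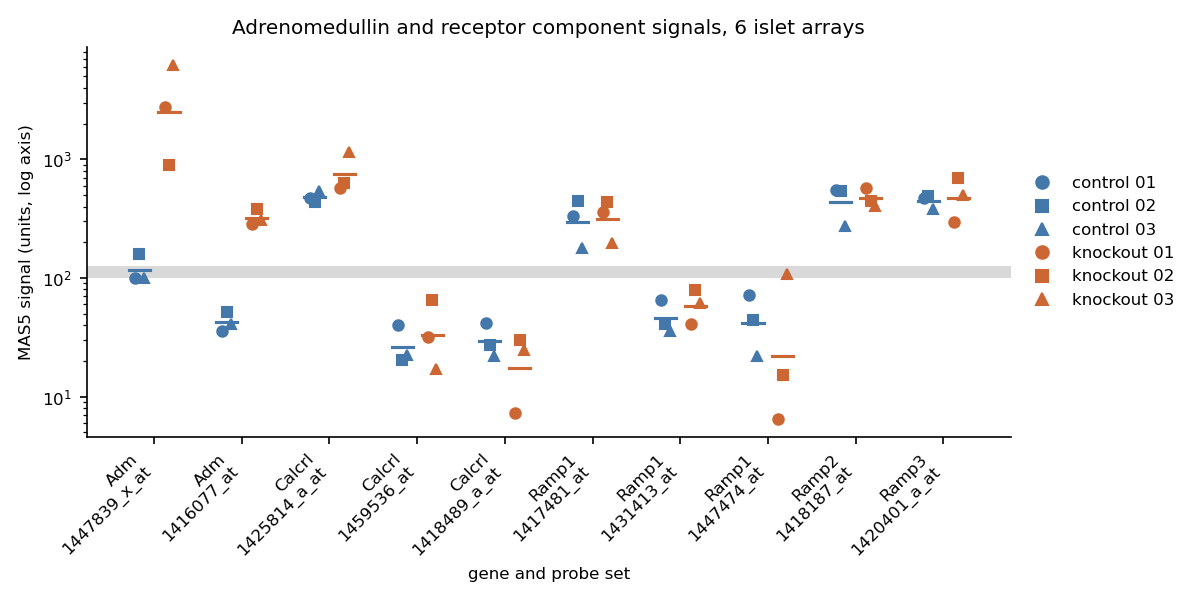
MAS5 signal (log axis) of the 10 probe sets on 6 islet arrays, controls in blue and knockouts in orange, with the symbol giving the array number, a short line the geometric mean and the grey band the range of array medians, 101.9 to 122.7. Both Adm probe sets show 3 knockouts above 3 controls, whereas signals overlap for Ramp1, Ramp2 and Ramp3.

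Among other genes induced by HIF, Adm was near the top in the size of its difference, at rank 12 of 11609. Ak4, a mitochondrial adenylate kinase, was at rank 1 (6.31), Egln3, a HIF prolyl hydroxylase, at rank 5 (3.66) and Ldha, a lactate dehydrogenase subunit, at rank 10 (2.95). Slc2a1, a glucose transporter, came at rank 28 (2.06), Pgk1, phosphoglycerate kinase, at 39 (1.87), Pdk1, an inhibitor of pyruvate oxidation, at 57 (1.71) and Bnip3, a mitophagy receptor, at 75 (1.54). Vegfa, the main vessel growth factor, was at rank 10761 with -0.46 and Ndrg1, a stress-responsive gene, at rank 1832 with 0.35. On the representative Adm probe set, though not on the other, the pair differences given above lay closer together than those of the 3 more raised genes of this list: Ak4 differed by 7.09, 4.61 and 7.21 in pairs 01, 02 and 03, Egln3 by 4.48, 2.67 and 3.82, and Ldha by 3.09, 2.09 and 3.67. Of the 9 genes of this list that were tested 1 passed limma's threshold, Ak4, and 7 had an unadjusted p under 0.05. With the replicate block 3 passed, Ak4 (adjusted limma p 0.0306), Ldha (0.0476) and Pgk1 (0.0432), and 7 again had an unadjusted p under 0.05. The list was drawn up with these results known, so its counts are a description.

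**Figure D2:**
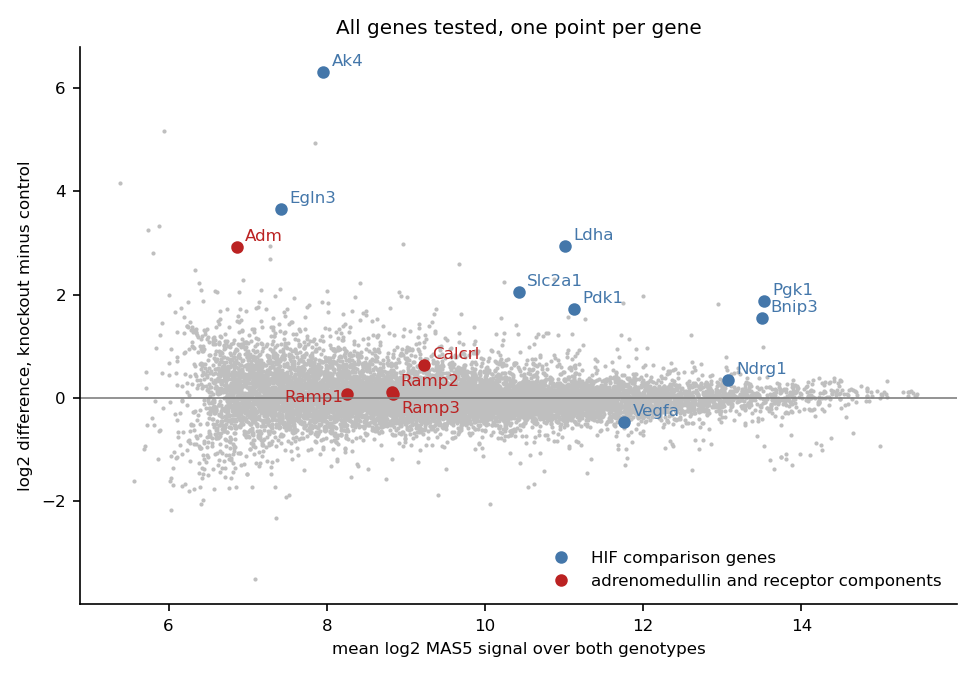
Log2 difference, knockout minus control, against mean log2 signal for the 11609 genes tested (grey), with Adm and the receptor components in red and HIF comparison genes in blue. Adm lies at 2.92 among dim genes, Calcrl at 0.64, and Ramp1, Ramp2 and Ramp3 lie near 0.

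Calcrl, the receptor itself, was higher in all 3 knockouts by a small margin on its 1 bright probe set. Signals of 1425814_a_at were 476.8, 436.3 and 536.4 in controls and 574.1, 631.4 and 1156 in knockouts. The groups did not overlap, but the lowest knockout lay close above the highest control and knockout 03 stood far above the other arrays. The log2 difference was 0.64 (SE 0.33, 95% interval -0.10 to 1.37), a 1.55-fold level, and it was 0.27, 0.53 and 1.11 in pairs 01, 02 and 03. Without knockout 03 it was 0.32, and without both arrays numbered 03 it was 0.40. The other 2 Calcrl probe sets were dim on all 6 arrays, with signals from 17.1 to 64.7 for 1459536_at and from 7.26 to 41.9 for 1418489_a_at. Their differences, 0.32 (SE 0.80) and -0.73 (SE 0.86), had opposite signs. Over the 16565 probe sets dim on all 6 arrays the median SD within a genotype was 1.11, against 0.40 over the 17483 above the median on all 6, so dim probe sets carry little on direction.

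Of the 5 genes, Adm and Calcrl had knockout signals all above control signals, 2 of 5, where 3.98% of the 11609 genes tested did; over probe sets it was 3 of 10 where 4.05% of 45037 did. Because the comparison of genotypes was known when the genes were picked, nothing is read from these shares.

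Markers of blood endothelial cells, in which Calcrl and Ramp2 are known to be abundant, were higher on the same arrays as Calcrl. Of 15 markers with a probe set 14 were tested, all 14 had a positive difference, with a median of 0.52 where the median over all genes was -0.00028, and 0 passed limma's threshold (1 at an unadjusted p under 0.05 and 3 with the replicate block). The summed signal of all 15 lay between 11662 and 11915 in controls and between 14408 and 19285 in knockouts. Bright probe sets weigh most in this sum: Kdr alone had 3652, 3768 and 3297 in controls and 7130, 5130 and 4674 in knockouts. None of the markers was at 0. Cdh5, an endothelial cadherin, had signals from 123.2 to 240.8. Tie1, an endothelial receptor, was dim on all 6 arrays and so not tested, and its difference was negative, at -0.23. The markers of lowest p were Kdr (0.64, SE 0.26), Egfl7 (0.61, SE 0.28) and Ptprb (0.65, SE 0.34), each with an adjusted limma p of 0.9998. Above the control mean, the 14 markers averaged 0.39, 0.26 and 0.78 on knockouts 01, 02 and 03, while Calcrl was at 0.25, 0.39 and 1.26. Both were thus highest on knockout 03, which was also the array of lowest summed acinar signal. Taken relative to the mean of these markers on the same array, Calcrl differed by 0.16 between genotypes, with an SD of 0.14 in controls and 0.31 in knockouts. In whole islets, more cells of a type and more RNA per cell cannot be told apart. The part of endothelial content in the Calcrl values was not tested beyond the value relative to these markers.

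**Figure D3:**
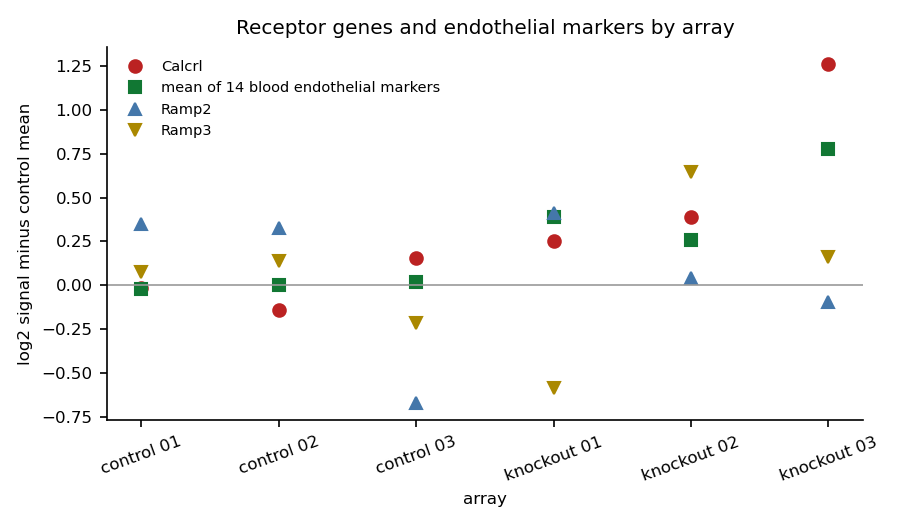
Log2 signal above the control mean for Calcrl, Ramp2, Ramp3 and the mean of 14 blood endothelial markers on each of the 6 arrays. Calcrl and the endothelial mean are highest on knockout 03, at 1.26 and 0.78, while Ramp2 on that array is at -0.10.

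The 3 RAMP genes overlapped between genotypes. Ramp2, the partner that makes the main adrenomedullin receptor of vessels, had signals of 551.8, 543.4 and 272.3 in controls and 578.4, 447.1 and 405.5 in knockouts. Control 03 was the lowest array and knockout 01 the highest. The log2 difference was 0.12 (SE 0.36, 95% interval -0.68 to 0.92), made of 0.07, -0.28 and 0.57 in pairs 01, 02 and 03, and it was -0.11 without both arrays numbered 03. A further 2 probe sets named for both Ramp2 and Vps25 were left out.

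Ramp3, the other adrenomedullin partner, had signals of 469.8, 492.1 and 384.3 in controls and 297.4, 699.2 and 498.7 in knockouts. Its knockouts held both the lowest and the highest signal of the 6 arrays. The log2 difference was 0.07 (SE 0.36, 95% interval -0.73 to 0.88), with -0.66, 0.51 and 0.38 in pairs 01, 02 and 03, and -0.08 without both arrays numbered 03. The SD was 0.62 on the log2 scale in knockouts and 0.19 in controls.

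Ramp1, the CGRP partner, followed the array number more than the genotype. Its bright probe set, 1417481_at, had signals of 335.9, 442.9 and 178.6 in controls 01, 02 and 03 and 361.1, 439.1 and 196.3 in knockouts with the same numbers. Within each number the genotypes were nearly level, with log2 differences of 0.10, -0.01 and 0.14, and the mean difference was 0.08 (SE 0.45; 0.27 with the replicate block). It was 0.05 without both arrays numbered 03. The remaining Ramp1 probe sets were dim or nearly so, with signals from 35.8 to 78.8 for 1431413_at and from 6.48 to 108.5 for 1447474_at, and their differences of 0.35 (SE 0.64) and -0.91 (SE 1.06) had opposite signs.

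**Figure D4:**
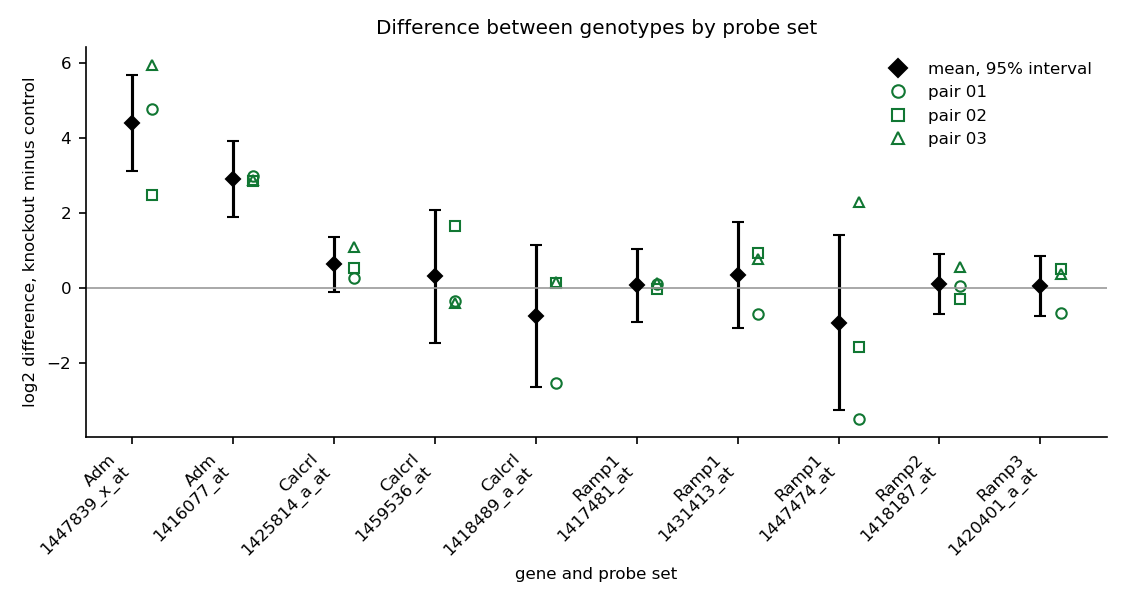
Log2 difference, knockout minus control, for each of the 10 probe sets, as the mean with limma's 95% interval (black) and the values of the 3 same-numbered pairs (green). The pair values lie between 2.49 and 5.96 for the Adm probe sets, between 0.27 and 1.11 for the bright Calcrl probe set and between -0.01 and 0.14 for the bright Ramp1 probe set.

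Arrays of the same number shared an age and a recorded sex. Recorded sex differed only for number 02, and Xist went against it on number 03. Control and knockout of the same number were different batches of islets, so the number does not stand for a batch of islets. Whether arrays of the same number shared a processing step was not analysed here. Age and anything else shared within a number cannot be told apart. The array number played no part in the choice of genes, so its effect was tested after the values had been seen. The test was limma's F test beside genotype over the 11609 genes. It passed for 24 genes, which is 0.207%, and for 0 of the 5 genes described here, with 1951 genes at an unadjusted p under 0.05. Ramp1 had the lowest p of the 5, 0.0155 and 0.212 after adjustment, and its mean log2 signal spanned 1.24 between numbers, highest for 02 (8.78) and lowest for 03 (7.55). The span was 0.77 for Ramp2, 0.65 for Ramp3, 0.59 for Calcrl and 0.48 for Adm, with adjusted p between 0.390 and 0.817. The difference between genotypes was 2.92 for Adm, which was chosen by it, 0.64 for Calcrl and 0.07 to 0.12 for the 3 RAMP genes. A span over several numbers and a difference between genotypes are unlike measures, so nothing is read from their sizes side by side. Acinar marker signal was lowest on the arrays numbered 03, as were Ramp1 and Ramp2 within each genotype, whereas Calcrl was highest there. The part of acinar content in those values was not tested.

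Other ligands of the calcitonin family were measured too. Adm2, which encodes intermedin, a peptide that also acts through Calcrl with a RAMP, had signals of 16.6, 17.2 and 30.3 in controls and 113.2, 67.2 and 150.1 in knockouts on its 1 probe set. All 3 knockouts lay above all 3 controls, yet 4 of the 6 signals were below their array's median and the gene was too dim to enter the main test. Over all 45037 probe sets, of which 4 passed (0.00888%), it differed by 2.35 (SE 0.67) and did not pass (unadjusted limma p 0.00524, adjusted p 0.99995). It was higher in each pair, by 2.77, 1.97 and 2.31. Calcb, a CGRP gene, was dim on all 6 arrays, with 67.8, 61.8 and 37.9 in controls and 38.5, 42.5 and 38.6 in knockouts. Calcr, the receptor for calcitonin and, with a RAMP, for amylin, was dim on all 6 as well, between 7.61 and 81.7. Iapp, which encodes the beta-cell peptide amylin, lay near the top of every array, from 24545 to 64210 on its representative probe set, and its difference was 0.05 (SE 0.38, adjusted limma p 0.9998). Its other 3 probe sets differed by 0.15, 0.12 and 0.01. Calca was not analysed here.

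Genes that make, clear or transduce the peptide did not pass. Of 8 tested genes of peptide maturation and clearance, 4 were higher and 4 lower, the median difference was 0.03, and 0 passed in limma, also at an unadjusted p under 0.05. Pam, the enzyme that amidates adrenomedullin and so activates it, had signals of 3828, 4783 and 2118 in controls and 3654, 7261 and 1788 in knockouts, a difference of 0.10 (SE 0.50). Of 6 tested partners and decoy receptors 3 were higher and 3 lower, with 0 past limma's threshold and 0 at an unadjusted p under 0.05. Ackr3, a decoy receptor that removes adrenomedullin, differed by 0.24 (SE 0.50), and Crcp, a coupling protein of the Calcrl complex, by -0.04 (SE 0.33). Of 21 tested genes of cAMP signalling 14 were higher and 7 lower, with a median of 0.17, and 0 passed in limma at either threshold (1 at an unadjusted p under 0.05 with the block). The lowest p was that of Rapgef3, a cAMP-activated exchange factor, with 481.7, 454.3 and 802.6 in controls and 1019, 597.0 and 1146 in knockouts, a difference of 0.66 (SE 0.35, adjusted limma p 0.9998). All 6 tested members of a list of other receptors reported to bind RAMPs were lower, with a median of -0.39, and 0 passed in limma at either threshold. Among them Glp1r, the incretin receptor, differed by -0.83 (SE 0.39), Crhr1, a corticotropin-releasing hormone receptor, by -0.73 (SE 0.48) and Gcgr, the glucagon receptor, by -0.50 (SE 0.34). The other 4 genes of this list were dim on all 6 arrays and not tested. Of these, Gper1 (0.92), Vipr2 (0.68) and Sctr (0.26) were higher and Pth1r (-0.80) was lower.

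The genes whose log2 signal was most like that of each member over the 6 arrays are named as a description, since with 6 arrays and 11609 genes many high correlations arise. For Adm these were Rccd1 (r = 0.988), Gab1 (0.987) and Ak4 (0.983), and 25 genes exceeded 0.95. For Calcrl they were 9430069I07Rik (0.993), Gadd45a (0.992) and Lsamp (0.992). For Ramp1 they were Rpl6 (0.999), Wdr46 (0.997) and Phf5a (0.997), with 128 genes above 0.95. For Ramp2 they were Ifi203 (0.996), Zfp3 (0.994) and Grb2 (0.990), and for Ramp3 Dram2 (0.993), Rcbtb2 (0.990) and Entr1 (0.989). The 6 points share 3 numbers, and for Adm the likeness rests mainly on the gap between genotypes. Among the 5 genes themselves Ramp1 and Ramp2 were most alike (0.788), Adm with Calcrl came to 0.671 and Calcrl with Ramp1 to -0.520.

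**Figure D5:**
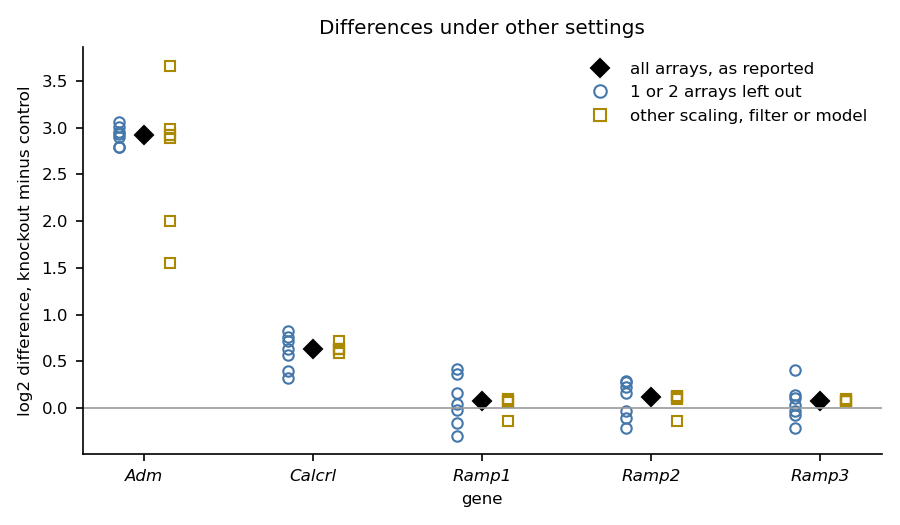
Log2 difference, knockout minus control, of each gene with all arrays (black, representative probe set), with arrays left out (blue circles) and under other scaling, filters or models (yellow squares). Adm stays between 1.55 and 3.66 and Calcrl between 0.32 and 0.83, while each RAMP gene falls on both sides of 0.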

How the data were processed

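Per the labels, small amounts of islet RNA were amplified by repeated synthesis of cDNA and transcription in vitro. The table deposited by the authors holds signal intensity from MAS5, linear and not log; the submitters' processing notes name GCOS 1.4 and MAS5. No detection calls were used here. Of 45101 probe sets 64 controls were left out; the platform annotation gave 34945 of the rest 1 symbol, 932 several and 9160 none. RefSeq (GRCm38.p6) matched 34741 by Entrez identifier, changed 0 symbols and gave promoters for 4 of the 5 genes.

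A gene was represented by its brightest probe set by mean log2 signal (by an _x_at probe set where it had no other), and it was tested if above the array median on at least 3 of 6 arrays. The genotypes were compared on log2 signal with limma 3.58.1 in R 4.3.3 (lmFit, eBayes with an intensity trend, Benjamini-Hochberg adjustment over all 11609 genes at 0.05). Standard errors of the 10 probe sets come from the same fit over all 45037 probe sets. The fit was tested on simulated data. Nothing shows that batches were independent beyond the labels, so p-values measure the spread between these samples.

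Deviations from the genotype means correlated at 0.148, 0.416 and 0.425 within the pairs numbered 01, 02 and 03, each over 0.1. Between unlike numbers they ran from -0.427 (control 03 with knockout 02) to 0.137 (control 01 with knockout 02), the latter also over 0.1. Pair 01 was thus barely set apart. The numbers were taken to pair the samples, and the fit with this block was an alternative. Others were a pseudocount, quantile normalization, array weights, no intensity trend, filters, averaging over a gene's probe sets and leaving out arrays. Leaving out both arrays numbered 03, the array median as a floor, the second Adm probe set, the endothelial reference for Calcrl and the test of the array number were chosen after seeing the data. The genes and lists were chosen with earlier results of these data known. The text names all probe sets of the 5 genes, the calcitonin family and the 3 genes most like each member. From other lists it names genes of lowest p, and also some, such as Pam, Ackr3, Crcp and Lyve1, that were not of lowest p.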

Additional observations from a re-analysis of the deposited data

How the results depend on the processing

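The Adm difference stayed positive under all 16 alternatives. It was 2.92 without the intensity trend and 3.66 when its probe sets were averaged. In each of these fits 1 of the 5 genes, Adm, was past the threshold. Over all genes, 3 of 11609 passed in the first fit and 2 of 10101 in the second. In the second, 3 of the 5 genes were bright enough to test. In the other fits 0 of the 5 passed. Nothing is read from these counts, nor from the sign of the Adm difference, since Adm was chosen by this comparison. Leaving out 1 array gave 2.80 to 3.06. Calcrl stayed positive, at 0.32 to 0.83 and, relative to blood endothelial markers, at 0.16. The RAMP genes changed sign: with array weights Ramp1 was at -0.14 and Ramp2 at -0.14, without both arrays numbered 03 Ramp2 was at -0.11 and Ramp3 at -0.077, and leaving out 1 array gave -0.29 to 0.42 for Ramp1, -0.22 to 0.29 for Ramp2 and -0.21 to 0.40 for Ramp3. The cause was not tested.

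With the replicate block 6 genes passed instead of 2 and 8 probe sets instead of 4, and the block changed no call of the 5 genes. A pseudocount of 50 gave 4 genes and the stricter filter on dim probe sets 1. Leaving out 1 array gave 0 to 5 genes and 0 to 3 probe sets. The genes numbered 0 without knockout 01 (498 at an unadjusted limma p under 0.05), without knockout 03 (254) and without both arrays numbered 03 (268), 1 without control 01 and 5 without control 02. The probe sets numbered 0 without the intensity trend (1784 at an unadjusted p under 0.05), without knockout 01 (1639), without knockout 03 (1442) and without both arrays numbered 03 (1576), 1 without control 01 and 2 without control 03. With the mean of probe sets Calcrl and Ramp1 were too dim to test, and under the stricter filter Adm was. Control signals below the array median on the representative probe set limit the size of the Adm fold.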

Other observations

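Markers of the other cells that carry adrenomedullin receptors or make the peptide were read from lists beside the 5 genes, and 0 members of these lists passed limma's threshold, with or without the replicate block. Pericyte and smooth muscle markers were higher in 8 of 9 tested genes, with a median log2 difference of 0.54 and 2 genes at an unadjusted p under 0.05 (3 with the block). Notch3, a receptor of mural cells, differed by 1.03 (SE 0.41), Pdgfrb by 1.22 (SE 0.52) and Rgs5 by 0.54 (SE 0.24). Lymphatic endothelial markers were higher in 4 of 5, with a median of 0.26 and 1 gene at an unadjusted p under 0.05 (2 with the block). Pdpn, podoplanin, had signals of 129.3, 180.5 and 188.5 in controls and 262.0, 285.8 and 607.6 in knockouts, while Lyve1 differed by 0.23 (SE 0.36) and Reln by -0.92 (SE 0.41). Pdpn is also expressed by fibroblasts.

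Fibroblast markers were higher in 8 of 8 tested genes, with a median of 1.23 and 1 gene, Fn1, at an unadjusted p under 0.05 (5 genes with the block), and their summed signal was 20604 on knockout 03 against at most 7753 elsewhere. Schwann and neural markers were higher in 5 of 7 (median 0.60), leukocyte markers in 5 of 6 (median 0.34), beta cell markers in 2 of 6 (median -0.22), alpha, delta and PP cell markers in 6 of 6 (median 0.27) and acinar markers in 0 of 7 (median -1.09). Of these 5 lists the neural list had 2 genes at an unadjusted p under 0.05, with or without the block, the beta cell list and the alpha, delta and PP cell list had 0 (1 each with the block), and the leukocyte and acinar lists had 0 either way. Knockout 03, the array with the highest Calcrl signal, was also the highest of the 6 in summed blood endothelial, pericyte, fibroblast, neural and leukocyte signal.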
